A study of Mus musculus with 15 samples.

Results

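The Wnt ligands, receptors and antagonists were followed as a list of 48 genes in cortical interneurons sorted from embryonic day 14.5 mice. The list held 10 ligands, 10 Frizzled receptors, 5 co-receptors, 8 secreted antagonists, 2 receptors for Dkk proteins, 6 intracellular or nuclear genes and 7 genes of the R-spondin system. A gene was taken as a member when a row of the deposited tables carried its name. Members made up 47 of the 26835 genes in the Lhx6 table and 45 of the 25714 genes in the Mtg8 table. Sfrp5 in both tables, and Fzd5 and Ror1 in the Mtg8 table, were not analysed here.

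The study asked which genes depend on LHX6, a transcription factor of the medial ganglionic eminence (MGE), and on MTG8, a co-factor encoded by Runx1t1. Each of the 15 libraries came from the YFP-positive cells of 1 embryonic cortex on a C57BL6/CBA background. All embryos carried the Nkx2-1-Cre transgene, which is active in the MGE lineage, and the R26R-YFP fl/fl reporter that Cre switches on. Lhx6 controls (Lhx6+/+, 4 embryos) were set against Lhx6-/- mutants (5 embryos), and Mtg8 controls (Mtg8+/+, 3 embryos) against embryos labelled Mtg8-/- (3 embryos), the groups being described as littermates. Both mutations are germline loss-of-function alleles, which are not restricted to the sorted cells. RNA was measured in bulk, and fewer cells of a type cannot be told apart from less RNA per cell.

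Wnt proteins are secreted lipid-modified signals. In the canonical branch they bring a Frizzled receptor together with LRP5 or LRP6, which stabilises beta-catenin and lets it act with TCF/LEF factors on target genes. In the other branches WNT5A-type ligands signal through Frizzled with ROR or RYK co-receptors to the cytoskeleton and cell polarity. SFRP, WIF1 and FRZB bind the ligands themselves, whereas DKK1 and DKK2 bind LRP5 and LRP6. R-spondins and LGR receptors keep Frizzled at the membrane by removing the ubiquitin ligases ZNRF3 and RNF43. In the embryonic forebrain the cortical hem is a known source of Wnt ligands and R-spondins.

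Depth lay between 12218422 and 22053032 reads counted on genes per library. The targeted gene was examined first. Lhx6, at 5812 to 8441 normalised reads in its controls, stood at 236 to 495 in the Lhx6 mutants (log2 fold change -4.48, adjusted p = 1.34e-07). Runx1t1 was not lower in the libraries labelled Mtg8 mutant, which held 12250 to 13934 normalised reads against 7938 to 10264 in controls. In the Lhx6 mutants Runx1t1 was higher too, at 12227 to 26527 against 6394 to 8945 (log2 fold change 1.23, limma adjusted p = 0.0040). The label alone is used to name the libraries labelled Mtg8 mutant throughout. Their mouse is listed as an Mtg8-LacZ knock-in, and counts over the whole gene cannot show whether Runx1t1 reads come from an intact transcript. All 15 MGE interneuron markers on the list checked had reads in both tables. In the Lhx6 table the library names of all 4 controls and of mutant 6 carry no date, whereas those of mutants 1, 2, 3 and 5 do. For the 4 dated mutants, name style and genotype cannot be told apart. Mutant 6 gives the comparison within 1 style. It also shares the first part of its library name with controls 1 and 2, as mutants 2 and 5 do with each other and labelled Mtg8 mutant 2 does with Mtg8 controls 1 and 2. The other names share no such part between control and mutant, and whether it marks a litter is not given in the sources used here.

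In controls the list was led by a few genes. The level of a gene was compared with that of another only as normalised reads per kb of exon, within 1 table. In the Lhx6 table Ctnnb1, which encodes beta-catenin, stood first at 658 ± 40.8 per kb (SD, n = 4). Sfrp1, a secreted Wnt-binding antagonist, followed at 442 ± 105, Fzd3, a Frizzled needed for axon guidance and cell polarity, at 336 ± 29.96, and Wnt7a, a canonical ligand of the forebrain, at 223 ± 28.3. Sfrp1 and Fzd3 overlapped in range over the 4 libraries, while Ctnnb1 lay above Sfrp1, and Fzd3 above Wnt7a, in every library. Below Wnt7a came Rspo3 at 79.1 ± 15.2, and from rank 5 to rank 12 each gene overlapped with the next one in the order. In the Mtg8 controls the same 4 genes led, with Ctnnb1 at 603 ± 143 per kb, Fzd3 at 491 ± 79.4, Wnt7a at 283 ± 34.0 and Sfrp1 at 220 ± 52.9 (n = 3). The tables were scaled separately, and no level was tested between them.

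**Figure D1:**
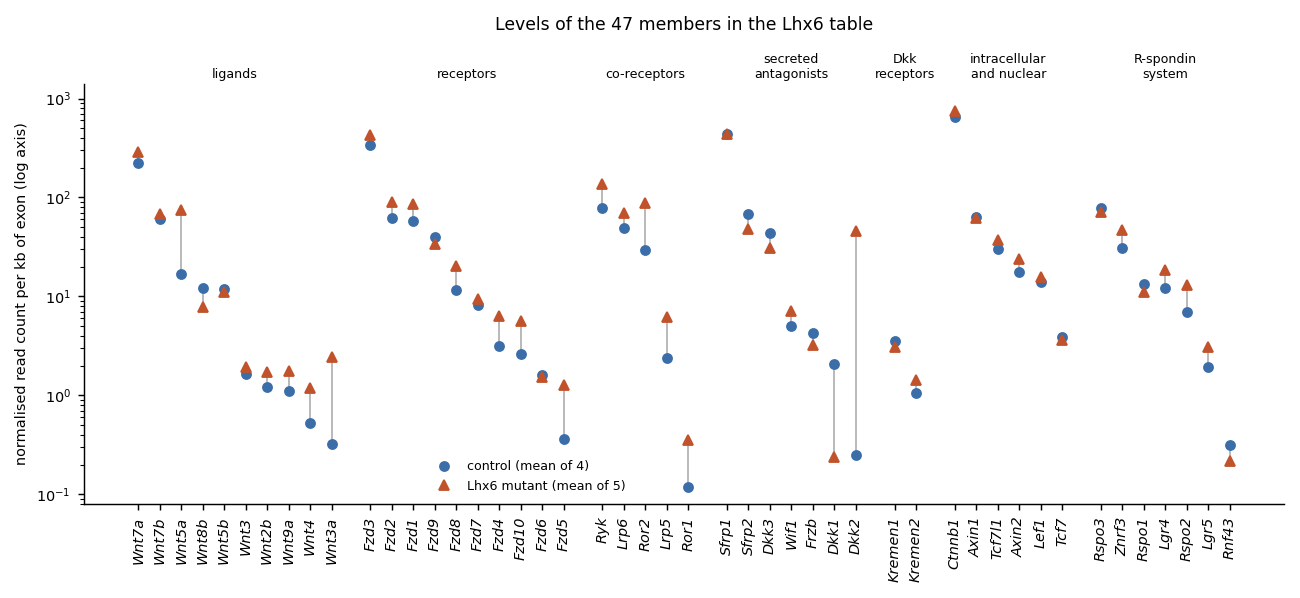
Levels of the 47 members in the Lhx6 table, as normalised read count per kb of exon on a log axis, grouped by role and ordered by the control mean. Circles are the mean of 4 controls and triangles the mean of 5 Lhx6 mutants; the widest gap is that of Dkk2, from 0.249 to 45.9 per kb.

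The Lhx6 comparison asked which members changed when LHX6 was lost. Of the members 3 rose and 0 fell. Those that rose were the antagonist Dkk2, the ligand Wnt5a and the co-receptor Ror2. These were 3 of the 36 members with a mean of at least 10 normalised reads, the minimum for testing with limma (adjusted p under 0.05), and over all 16727 genes tested 1.71% were called, 1.03% higher and 0.682% lower. edgeR called 3 members (1.67% of all genes) and DESeq2 5 (3.04%), adding Lrp5 and Znrf3 to the same 3 genes. In 7 members every mutant library lay above every control, and in 0 every mutant lay below, where 6.22% of all genes tested were separated in either direction, 3.19% upward and 3.03% downward. These 7 were Wnt5a, Fzd1, Fzd2, Lrp5, Ror2, Dkk2 and Znrf3. At an unadjusted p under 0.05, 9 members were higher and 0 lower, where 12.7% of all genes passed, 7.11% higher and 5.63% lower. The median log2 fold change was 0.29 over the members tested and -0.04 over all genes tested. Of the 36 members, 34 had a mean of at least 10 in both groups, whereas Dkk2 and Fzd10 reached the minimum through the mutants.

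Dkk2 (ENSMUSG00000028031.6, chr3:132085292-132180304, plus strand of GRCm38) encodes a secreted protein that binds LRP5 and LRP6 and inhibits or, in some settings, activates canonical signalling. It was at 0 in controls 1, 2 and 4 and at 3.68 normalised reads in control 3. The 5 mutants held 193, 105, 211, 232 and 109 normalised reads in the order of mutants 1, 2, 3, 5 and 6. The groups did not overlap, and 1 control had any read on the gene. In raw terms, 4 reads in the 4 controls stood against 824 in the 5 mutants. Relative to depth this was a ratio of 190, with an exact 95% interval of 73.8 to 698 that covers counting error only. The fitted log2 fold change was 6.78 (SE 0.57, limma adjusted p = 3.05e-05), a size that depends on the pseudocount of 1 and was 7.57 with a pseudocount of 0.5 and 3.99 with one of 10. Because Dkk2 entered the test through the mutants, its call is read together with these counts.

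Wnt5a (ENSMUSG00000021994.15, chr14:28504750-28527448, plus strand) is the best studied ligand of the non-canonical branch. It held 156, 102, 146 and 122 normalised reads in controls 1 to 4. The mutants held 1047, 460.0, 509, 653 and 287. The lowest mutant, mutant 6, lay above the highest control, and mutant 1 was the highest of the 5. The log2 fold change was 2.05 (SE 0.31, limma adjusted p = 0.00375).

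Ror2 (ENSMUSG00000021464.14, chr13:53109312-53286124, minus strand) encodes a receptor tyrosine kinase through which WNT5A signals. It held 139, 119, 160.3 and 82.1 normalised reads in controls 1 to 4. The mutants held 372, 259, 544, 404 and 299.6. The groups were again separate, and mutant 2 was the lowest mutant. The log2 fold change was 1.57 (SE 0.26, limma adjusted p = 0.00637). For Wnt5a and Ror2 the exact two-sided permutation test over libraries gave p = 0.00794, the smallest value that 4 against 5 allows. Lrp5 and Znrf3, which limma did not call, gave the same p in that test. Wnt5a and Ror2 were picked by limma in the same libraries, so this p is not further support for them. Dkk2 reached the minimum through the mutants and was picked with its change known, so no permutation p is given for it. Its calls in the fits that follow are described without being read as support. Mutant 6 lay above all 4 controls, which have its name style, for Dkk2, Wnt5a and Ror2. Its differences from their mean were 6.22, 1.14 and 1.29 on the log2 scale. With name style as a covariate, which leaves mutant 6 against the controls and calls 0.341% of all genes, Dkk2 was called (limma adjusted p = 0.0189) and Wnt5a and Ror2 were not (adjusted p = 0.638 and 0.533). That fit has 1 mutant library on its side of the contrast, which is assumed to vary like the other libraries. A replicate block left 2 members called (0.514% of all genes), and Ror2, with a log2 fold change of 1.43 in that fit, was not (adjusted p = 0.150).

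Dkk2 and Ror2 lie on different chromosomes and are 2 of the members that rose. The 250 bases before each start are shown because they are the members that rose and have a window in the table used. They come from RefSeq's promoter table on GRCm38.p6, read 5′ to 3′ on the strand of the gene, at chr3:132085042-132085291 (plus strand) for Dkk2 and chr13:53286125-53286374 (minus strand) for Ror2. Capitals mark a match on either strand to any of 3 motifs. These were the TATA box, searched for as TATAAA. The core bound by TCF/LEF factors was searched for as CTTTGAT. The core of homeodomain sites was searched for as TAATTA.
Dkk2: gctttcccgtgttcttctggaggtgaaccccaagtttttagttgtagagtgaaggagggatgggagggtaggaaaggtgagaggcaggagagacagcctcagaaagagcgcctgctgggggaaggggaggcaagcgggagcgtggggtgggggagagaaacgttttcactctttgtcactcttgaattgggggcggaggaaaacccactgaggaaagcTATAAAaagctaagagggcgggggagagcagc
Ror2: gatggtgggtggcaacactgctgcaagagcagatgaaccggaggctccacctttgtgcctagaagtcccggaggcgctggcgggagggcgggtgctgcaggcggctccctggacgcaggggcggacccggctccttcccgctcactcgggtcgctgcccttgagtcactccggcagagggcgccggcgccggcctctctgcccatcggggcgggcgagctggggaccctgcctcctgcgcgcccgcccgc

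The Dkk2 window held 1 match, TATAAA at position -32 from the start, and the Ror2 window held 0 matches to the 3 motifs. Among all 32851 windows of that length the TATA box motif was present in 12.4%, the TCF/LEF core in 3.21% and the homeodomain core in 4.84%. The members had 40 of these windows, of which 8 held the TATA box motif, 1 the TCF/LEF core (Wnt5b) and 1 the homeodomain core (Wnt8b). Counted by gene, these were 8, 1 and 1 of 32 members, where 14.3%, 3.72% and 5.65% of all 27025 genes had the motif in at least 1 window. A match is a description of these letters in this window and was not set against binding data.

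**Figure D2:**
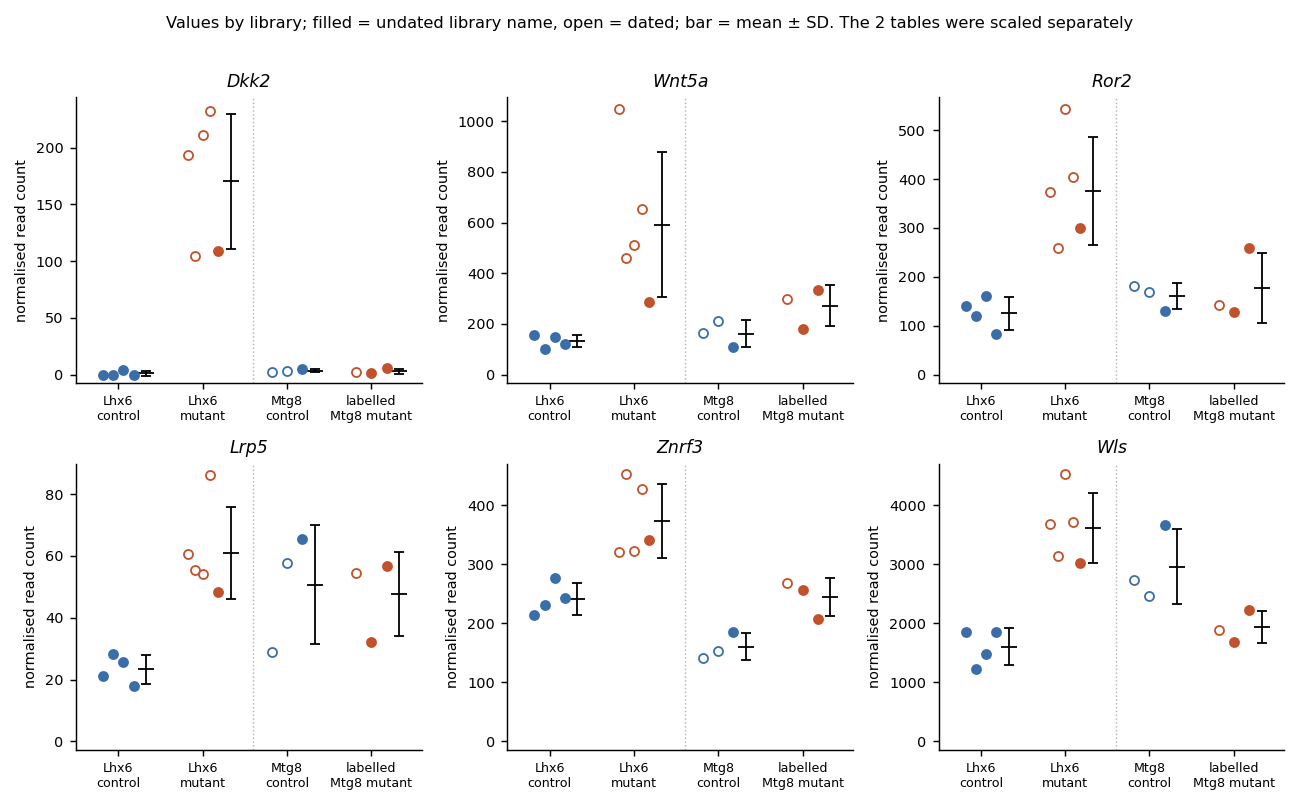
Normalised read count of each library for the 5 members called by limma or DESeq2 in the Lhx6 comparison and for Wls, with the mean and SD of each group. Filled points have an undated library name and open points a dated one; Dkk2 stands at 105 to 232 in the Lhx6 mutants and at no more than 5.35 in every other group.

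The other ligands did not pass the test in the Lhx6 comparison. Wnt7a held 646, 643, 835 and 700.4 normalised reads in controls and 1310.4, 645, 1233, 839 and 581 in mutants (log2 fold change 0.31, adjusted p = 0.602). Wnt7b, a canonical ligand of cortical neurons and of brain vessel formation, held 214, 317, 342 and 316 in controls and 226, 288, 508, 297 and 363 in mutants (0.15, adjusted p = 0.813). Their groups overlapped throughout. Wnt5b and Wnt8b had log2 fold changes of -0.32 and -0.81, with control ranges of 11.1 to 45.2 and 23.03 to 69.2 normalised reads. Wnt2b, Wnt3, Wnt3a, Wnt4 and Wnt9a lay under the minimum, and none of them had more than 9.61 normalised reads in a control or 23.5 in a mutant.

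The make-up of the ligand pool was described as the share of each gene in the summed level per kb. Wnt7a took 65.4 to 69.2% of it in Lhx6 controls and 55.8 to 66.8% in mutants. Wnt5a took 4.34 to 6.39% in controls and 10.6 to 21.6% in mutants, and every mutant lay above every control in this share, which is a description with no test. Its mean level was 16.8 per kb in controls and 75.6 in mutants, where Wnt7b stood at 60.7 and 68.7. Wnt5a was above Wnt7b in mutants 1 and 5, below it in mutants 3 and 6, and level with it in mutant 2.

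Among the Frizzled receptors 0 were called, although Fzd1, Fzd2 and Fzd3 had unadjusted p-values under 0.05 and positive differences. Fzd3 held 4124, 3967, 4847 and 4293 normalised reads in controls and 6594, 5734, 5234, 5324 and 4379 in mutants (log2 fold change 0.33, SE 0.13, adjusted p = 0.306). Fzd1 held 229.8, 245, 263 and 234 in controls and 533, 267, 379, 307 and 312 in mutants (0.52, adjusted p = 0.311). Fzd2 held 217, 240.2, 212 and 243 in controls and 469, 339.7, 249, 254 and 323 in mutants (0.48, adjusted p = 0.368). For Fzd1 and Fzd2 the groups did not overlap, and mutant 1 was the highest library for all 3 receptors. Fzd4, Fzd7, Fzd8, Fzd9 and Fzd10 ranged from -0.62 (Fzd7) to 1.32 (Fzd4), with overlapping groups, and Fzd4 was at 0.49 without control 2. Fzd7 ran from 0.969 normalised reads in mutant 5 to 94.0 in mutant 1, where its controls held 33.4 to 39.4. Fzd5 and Fzd6 were under the minimum.

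All 4 co-receptors tested had positive differences in the Lhx6 comparison, as had 7797 of all 16727 genes tested, and Ror2 was the one called by limma. With name style as a covariate the differences of Lrp6 and Ryk turned to -0.089 and -0.21. Lrp5, which pairs with Frizzled in the canonical branch, held 21.1, 28.4, 25.8 and 17.96 normalised reads in controls and 60.6, 55.5, 54.0, 86.2 and 48.3 in mutants. The groups were separate (log2 fold change 1.34, SE 0.32), but the limma adjusted p was 0.0633. DESeq2 on the recovered reads called it (adjusted p = 0.00187). Lrp6, the more abundant partner, held 751, 541, 766 and 614 in controls and 1083, 1076, 959, 972 and 622 in mutants (0.48, adjusted p = 0.305). Mutant 6 lay within the range of the controls. Ryk, an atypical kinase-like Wnt receptor, held 285, 346, 443 and 351 in controls and 1215, 661, 346, 571 and 303 in mutants (0.63, adjusted p = 0.471), and mutants 3 and 6 were within the range of the controls. Ror1 had 3 reads over the controls and 11 over the mutants.

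The remaining antagonists were set beside Dkk2 as its nearest relatives in role. None of the others was called in the Lhx6 comparison. Sfrp1 held 1827, 1439, 2543 and 1921 normalised reads in controls and 1826, 1981, 2269.8, 1386 and 2197 in mutants. Its log2 fold change was 0.01 with a 95% interval of -0.39 to 0.41. Sfrp2, which encodes a related Wnt-binding protein, held 119, 134, 147 and 179.6 in controls and 69.3, 131, 112, 67.8 and 134 in mutants (-0.54, interval -1.14 to 0.06). Dkk3, a divergent family member that does not bind LRP6 as DKK1 does, held 165, 191, 116 and 122 in controls and 21.0, 62.9, 219, 59.1 and 159.7 in mutants (-0.90, interval -2.08 to 0.28). The groups overlapped for both genes. Frzb (-0.77) and Wif1 (0.92) had 0 to 38.8 normalised reads per library and intervals that span 0.

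Beside these values stand the 4 and 824 reads of Dkk2, which was picked with its change known, so that no test was made between the genes. Dkk1, its closest relative in function, was below the minimum for limma, with 22 reads in 3 of 4 controls and 3 reads in 1 of 5 mutants. The ratio relative to depth was 0.126, with an exact 95% interval of 0.0241 to 0.418 for counting error only, and the exact permutation test over libraries gave p = 0.0873.

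In level per kb, Dkk2 was the lowest of the 7 antagonists in Lhx6 controls (mean 0.249). In mutants its mean was 45.9, where Sfrp1 stood at 442, Sfrp2 at 47.7 and Dkk3 at 31.1. The order of the last 3 varied by library, with Dkk2 above Sfrp2 in mutants 1, 3 and 5 and below Dkk3 in mutants 3 and 6. Its share of the antagonist pool was 0 to 0.143% in controls and 4.53 to 13.9% in mutants. Sfrp1 made up 72.0 to 83.4% in controls and 70.5 to 81.9% in mutants. The share of Dkk2 was highest in mutant 5 and lowest in mutant 6. Of the receptors that bind DKK1 and DKK2 together with LRP6, Kremen1 held 21.1, 32.8, 28.6 and 27.4 normalised reads in controls and 53.2, 10.2, 23.3, 10.7 and 21.0 in mutants (log2 fold change -0.44, adjusted p = 0.725). Kremen2 was under the minimum, with 10 reads over the controls and 16 over the mutants.

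**Figure D3:**
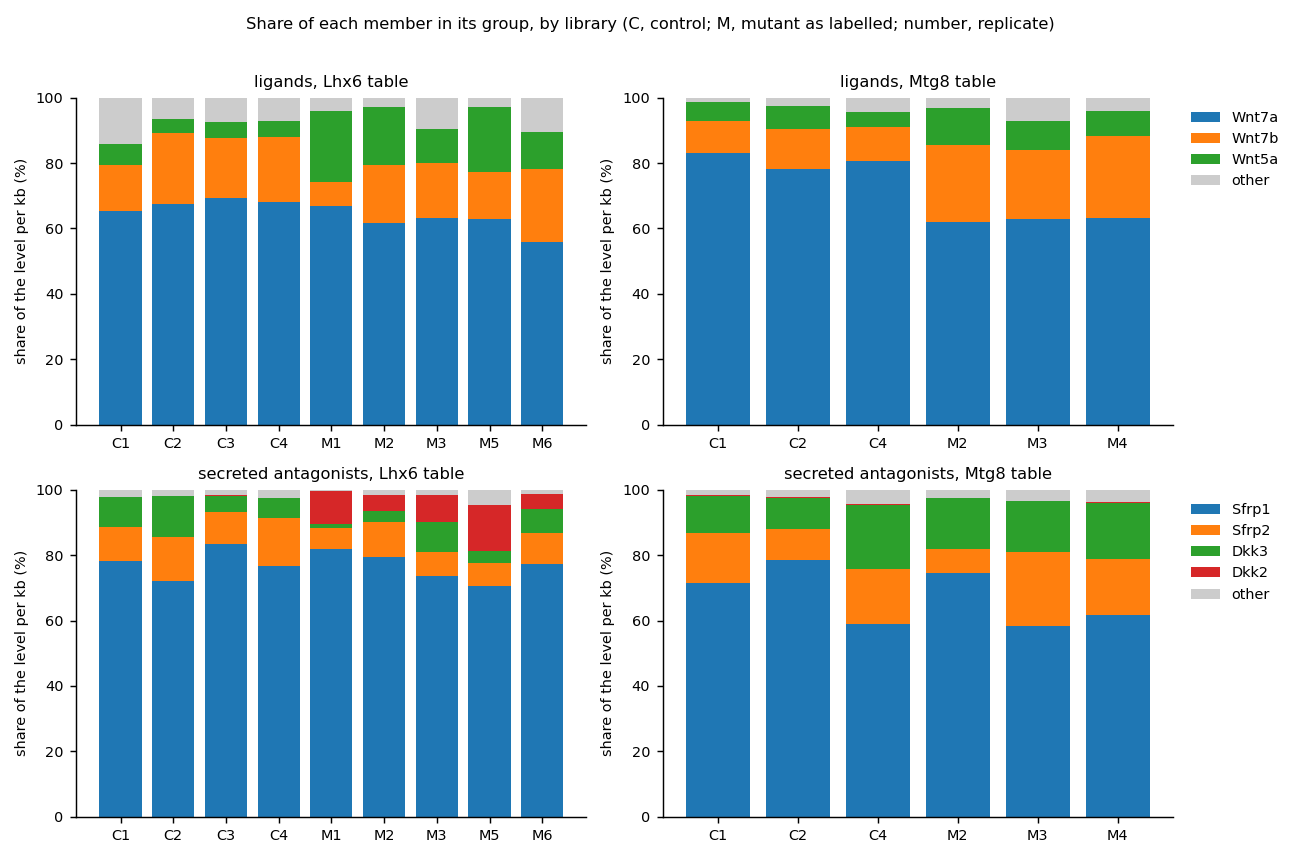
Share of each ligand (top) and each secreted antagonist (bottom) in the summed level per kb of its group, in percent, for every library of the Lhx6 table (left) and the Mtg8 table (right). Dkk2 makes up 4.53 to 13.9% of the antagonists in the Lhx6 mutants, and Wnt7b 21.2 to 25.1% of the ligands in the libraries labelled Mtg8 mutant.

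None of the 6 intracellular and nuclear members was called in the Lhx6 comparison. Ctnnb1 held 3582, 3426, 3112 and 3538 normalised reads in controls and 2915, 3809.7, 4853, 3791 and 4148 in mutants (log2 fold change 0.18, interval -0.13 to 0.49). Axin1, a scaffold of the complex that degrades beta-catenin, held 272, 184, 246 and 275 in controls and 225, 255, 171, 293 and 244 in mutants (-0.04, interval -0.50 to 0.41). Axin2, a negative regulator that is itself a widely used target of canonical signalling, held 78.8, 81.5, 112 and 118 in controls and 204, 157, 104, 141 and 58.2 in mutants (0.35, interval -0.39 to 1.08). Mutant 6 was below all 4 controls for Axin2 and mutants 1, 2 and 5 were above them. Lef1 (0.18) and Tcf7l1 (0.27), a pair of TCF/LEF factors, had overlapping groups. Tcf7l1 held 79.8, 145, 121 and 123 in controls and 220.3, 143, 83.8, 134 and 145 in mutants. Tcf7 (-1.94, adjusted p = 0.505) stood at 0 to 2.48 in mutants 2, 3, 5 and 6 and at 52.0 in mutant 1, with 7.70 to 15.7 in controls.

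In the R-spondin system 0 members were called by limma. Znrf3, the ubiquitin ligase that removes Frizzled from the membrane, held 214, 230.4, 277 and 242 normalised reads in controls and 320.5, 454, 323, 428 and 342 in mutants. Its groups were separate (log2 fold change 0.62, SE 0.18), with a limma adjusted p of 0.131 and a DESeq2 adjusted p of 0.0139. Rspo3, the most abundant R-spondin, held 220.1, 315, 215 and 228 in controls and 277, 81.5, 228, 221 and 295 in mutants (-0.26, adjusted p = 0.759). Rspo1 held 25.96, 31.9, 35.01 and 11.1 in controls and 18.56, 7.40, 40.05, 24.2 and 16.1 in mutants (-0.35), and Rspo2, at 11.1 to 60.8 in controls, had a log2 fold change of 0.83. Of the R-spondin receptors, Lgr4 (0.32) and Lgr5 (0.57) overlapped between groups, and the ligase gene Rnf43 was under the minimum.

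**Figure D4:**
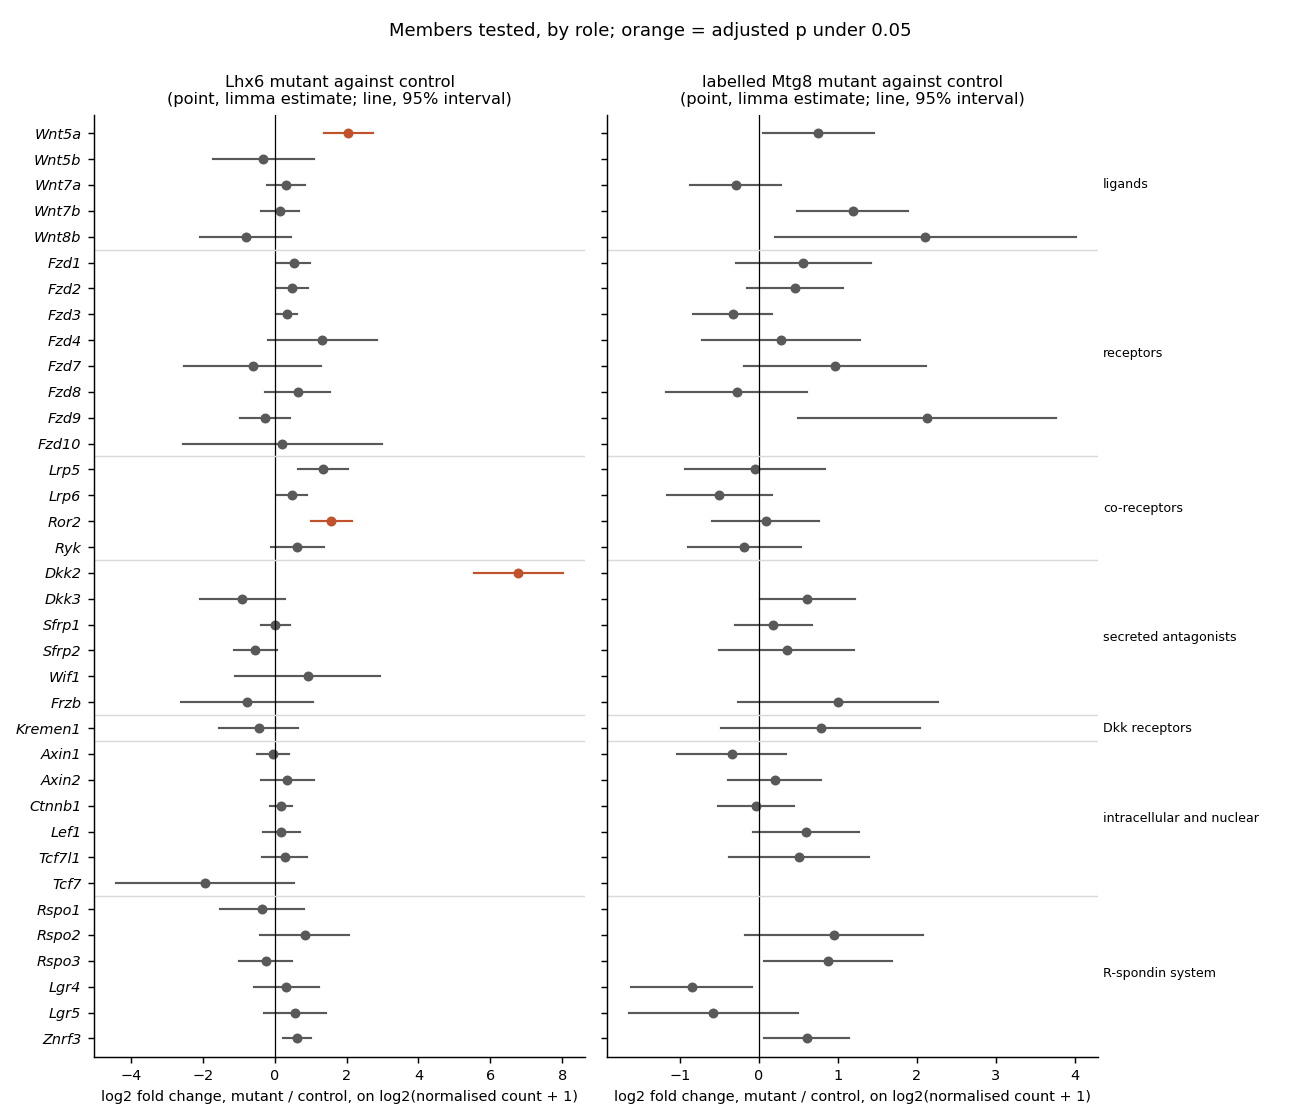
Log2 fold change of each member tested, with its 95% interval from limma, in the Lhx6 comparison (left) and in the comparison of libraries labelled Mtg8 mutant with controls (right; the axes differ in range). Wnt5a (2.05), Ror2 (1.57) and Dkk2 (6.78) are called on the left and 0 members on the right.

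The genes of the pathway outside the list were counted in the same fit. They were listed as 113 further gene names of ligand release, modulation, the destruction complex, nuclear partners, reporter targets and planar cell polarity. Some names stand for the same gene, and 95 had a row in the Lhx6 table. Of these 81 were tested, 2 rose and 3 fell, where 1.03% of all genes tested were called higher and 0.682% lower. Wls, which carries Wnt ligands to the cell surface, rose from 1860.2, 1225, 1487 and 1852 normalised reads in controls to 3686, 3137, 4528, 3710.3 and 3019 in mutants (log2 fold change 1.18, SE 0.16, adjusted p = 0.00185). Gpc6, a glypican of the cell surface, rose by 1.28 (SE 0.24, adjusted p = 0.0141), from 67.6 to 117 in controls to 158 to 267 in mutants. For both genes every mutant lay above every control, as in 3.19% of all genes tested.

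Myc, a proliferation factor and known Wnt target, fell by 1.46 on the log2 scale (SE 0.28, adjusted p = 0.0163), from 386 to 533 normalised reads in controls to 115 to 322 in mutants. Gpc2, a glypican of developing neurons, fell by 1.71 (SE 0.38, adjusted p = 0.0390), and Tle1, a co-repressor that partners TCF factors, fell by 0.77 (SE 0.18, adjusted p = 0.0473). With no minimum on low values neither Gpc2 nor Tle1 was called (adjusted p = 0.0806 and 0.0595). In these 3 genes every mutant lay below every control, as in 3.03% of all genes tested. Mutant 6 lay beyond the 4 controls in the same direction for all 5 genes, with differences of 0.93 (Wls), 0.80 (Gpc6), -1.40 (Myc), -1.52 (Gpc2) and -0.54 (Tle1). With name style as a covariate 0 of the 5 were called, with a replicate block 0 were called at log2 fold changes of 1.32 (Wls), 1.34 (Gpc6), -1.30 (Myc), -1.85 (Gpc2) and -0.82 (Tle1), with adjusted p from 0.0521 for Wls to 0.416 for Tle1, and leaving out single libraries left 1 to 9 pathway genes called. Of the 8 reporter targets tested besides the members, 1 fell (Myc) and 0 rose.

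Dkk2 starts at chr3:132085292 on GRCm38.p6, and the genes around it were followed to see whether its neighbours moved too. Of 18 genes tested that start within 1.5 Mb of it, 0 were called by limma and 2 had an unadjusted p under 0.05, a share close to the 12.7% of all genes tested. Papss1, the nearest tested gene, starts at -521 kb from Dkk2 and had a log2 fold change of -0.03 (adjusted p = 0.938). Lef1 starts at -975 kb. The 2 genes were Npnt, at 9.41 to 36.3 normalised reads in controls and 31.0 to 183 in mutants (1.92, adjusted p = 0.123), and Tet2 (0.57, adjusted p = 0.221). Both had overlapping groups. Npnt was called without mutant 6 (limma adjusted p = 0.0447) and by DESeq2 (adjusted p = 0.0111).

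Marker genes of other cells were summed per library in the Lhx6 table. Markers of caudal ganglionic eminence interneurons summed to 1810 to 2126 normalised reads in controls and 2556 to 3376 in mutants, though their 7 genes had a median log2 fold change of -0.59, with 1 called higher and 1 lower. MGE interneuron markers other than the deleted gene summed to 46567.5 to 58133 in controls and 32595 to 54912 in mutants, with overlap. Radial glia (10177 to 12308 against 9638 to 18006), pallial neurons and their progenitors (17737 to 23303 against 13863 to 19218) and Cajal-Retzius cells (1801 to 2780 against 1933 to 3186) overlapped. Cortical hem and choroid plexus markers ranged from 83.8 to 5887 in controls and from 12.4 to 20724 in mutants, also with overlap. Vessel cells (122 to 608 against 177 to 521), meninges (18.8 to 652 against 4.95 to 936), microglia (44.3 to 186 against 17.4 to 416) and erythroid cells (5966 to 58631 against 1810 to 20415) overlapped too. No marker of these 8 kinds of cell was called. The part of any of these cells in the changes of Dkk2, Wnt5a and Ror2 was not tested.

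The comparison of libraries labelled Mtg8 mutant with controls gave no member, and no gene, past the threshold of limma. Of the 45 members with a row 30 were tested, and 0 of the 16132 genes tested were called (0%). At an unadjusted p under 0.05, 7 members were higher and 1 was lower, where 5.49% of all genes tested passed, 3.06% higher and 2.44% lower. In 7 members (Wnt7b, Fzd7, Fzd9, Dkk3, Lef1, Rspo2 and Znrf3) every library labelled mutant lay above every control, and in 0 below, where 10.2% of all genes were separated, 4.68% upward and 5.52% downward. The median log2 fold change was 0.40 over the members and -0.01 over all genes tested. Over the members it was 0.20 with a minimum of 50 and 0.20 to 0.46 without single libraries. Wnt8b, Fzd9, Frzb and Rspo2 reached the minimum through the libraries labelled mutant alone, so these counts lean upward. edgeR called 0 members and 1 gene of all (0.0062%), and DESeq2 0 members and 30 genes (0.117%). With 3 against 3 the exact permutation test cannot give a p below 0.1.

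Wnt7b had the smallest unadjusted p of the members, at 177, 229 and 149.7 normalised reads in Mtg8 controls 1, 2 and 4 and 393, 272 and 673 in mutants 2, 3 and 4 as labelled. The log2 fold change was 1.19 (SE 0.32, limma adjusted p = 0.771), and with a replicate block, which rests on 2 same-numbered pairs not taken as pairs here and calls 0.62% of all genes, it was 1.47 (adjusted p = 0.00127). In this table both name styles hold both groups, and the difference was 0.96 among the 3 dated libraries and 1.51 among the 3 undated ones. In the ligand pool per kb it took 9.90 to 12.14% in controls and 21.2 to 25.1% in libraries labelled mutant, while Wnt7a took 78.3 to 83.0% and 62.0 to 63.1%. Wnt7a itself held 959, 958 and 772 against 671, 524 and 1096 (-0.29, adjusted p = 0.896). The shares were separate between groups and the reads of Wnt7a were not. Wnt5a held 165, 211 and 108 in controls and 299, 181 and 336 in libraries labelled mutant, with overlap (0.75, adjusted p = 0.859). Wnt8b had 1.07 to 18.59 normalised reads in controls and 9.06 to 25.7 in the others (2.11).

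Of the receptors, Fzd9 held 3.35, 8.53 and 4.89 normalised reads in controls and 9.06, 21.1 and 90.2 in libraries labelled mutant (log2 fold change 2.13, SE 0.75, adjusted p = 0.859). Its groups were separate, and mutant 4 as labelled carried most of the difference. Fzd3 held 5212, 7232 and 6431 against 6926, 3731 and 4697 (-0.33), Fzd1 162, 168 and 68.5 against 256, 117 and 203 (0.56), and Fzd2 124, 163 and 96.8 against 179, 186 and 153 (0.45). All 3 overlapped. The co-receptors Lrp5 (-0.05), Lrp6 (-0.50), Ror2 (0.09) and Ryk (-0.18) overlapped between groups as well. Lrp6 held 861, 887 and 499.9 against 766, 358 and 491, and Ryk 293, 325 and 173 against 241, 318 and 147. For Ror2 the values were 181, 168 and 130.1 in controls and 143, 129 and 259 in the others.

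Dkk2 was near its floor in both groups of the Mtg8 table, at 2.24, 3.20 and 4.89 normalised reads in controls and 2.27, 0.919 and 5.35 in libraries labelled mutant. There were 10 reads in each group, a ratio relative to depth of 0.871 with an exact 95% interval of 0.325 to 2.33 for counting error only. Dkk3 held 117, 109.8 and 185 in controls and 195, 196 and 224 in the others, which were separate (log2 fold change 0.61, adjusted p = 0.859). Sfrp1 (968, 1193 and 731 against 1216, 952 and 1063) and Sfrp2 (102, 72.5 and 104 against 60.0, 184 and 144) overlapped. Dkk1, with 30 reads in controls and 13 in the others, and Wif1, with 10 and 41, were not tested. Kremen1 held 7.82, 37.3 and 11.7 in controls and 18.1, 29.4 and 36.7 in libraries labelled mutant.

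In the R-spondin system Znrf3 held 142, 154 and 186 normalised reads in Mtg8 controls and 268, 256 and 208 in libraries labelled mutant, again separate (log2 fold change 0.60, SE 0.25, adjusted p = 0.859). Its difference was 0.62 in the Lhx6 comparison (limma adjusted p = 0.131). Limma called Znrf3 in neither comparison, and agreement between the 2 was not tested. Rspo3 held 99.5, 135 and 50.9 against 216, 165 and 122 (0.88), with overlap. Lgr4, the one member lower at an unadjusted p under 0.05, held 87.2, 103 and 61.6 against 36.3, 62.5 and 40.5 (-0.85, adjusted p = 0.859), also with overlap. Among nuclear and intracellular members Ctnnb1 (-0.04), Axin1 (-0.35) and Axin2 (0.20) overlapped. Ctnnb1 held 3299, 3775 and 2319 against 3301, 3335 and 2425, Axin1 332, 390.3 and 197 against 321, 224 and 172, and Axin2 97.2, 125 and 147 against 137, 138 and 143. Lef1 held 60.8 to 78.2 in controls and 79.3 to 131 in the others (0.60). Of the other pathway genes 81 were tested and 0 called. The 3 of smallest unadjusted p were Pygo1, a nuclear partner of beta-catenin (-0.68), Wls (-0.60) and Lrp4, an LRP5/6 relative (0.84), each with a limma adjusted p of 0.859. They are among the pathway genes whose groups were separate, 7 upward and 6 downward, where 4.68% of all genes tested were separated upward and 5.52% downward.

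Some marker sums did not overlap between the groups of the Mtg8 table, where no marker was called. Radial glia markers summed to 6744 to 8465 normalised reads in controls and 9189 to 13696 in libraries labelled mutant. MGE interneuron markers summed to 86452 to 90030.3 and 53488 to 74126. Caudal eminence markers summed to 1761 to 1919 and 1968 to 2709. All 14 pallial markers had positive differences, as had 7823 of all 16132 genes tested, but their sums overlapped (6010 to 14650 against 9541 to 23426). Cortical hem and choroid plexus markers summed to 25.6 to 68.5 in controls and 48.9 to 2050.4 in the others, with overlap. Cajal-Retzius cells (1565 to 3075 against 1119.9 to 2925), vessel cells (119.6 to 840.3 against 222 to 439.6), meninges (32.3 to 232 against 37.7 to 245), microglia (0.978 to 653 against 65.7 to 109) and erythroid cells (10849 to 27180.5 against 15498 to 31676) overlapped as well. The part of these cells in the values of Wnt7b, Fzd9 and Lef1 was not tested.

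**Figure D5:**
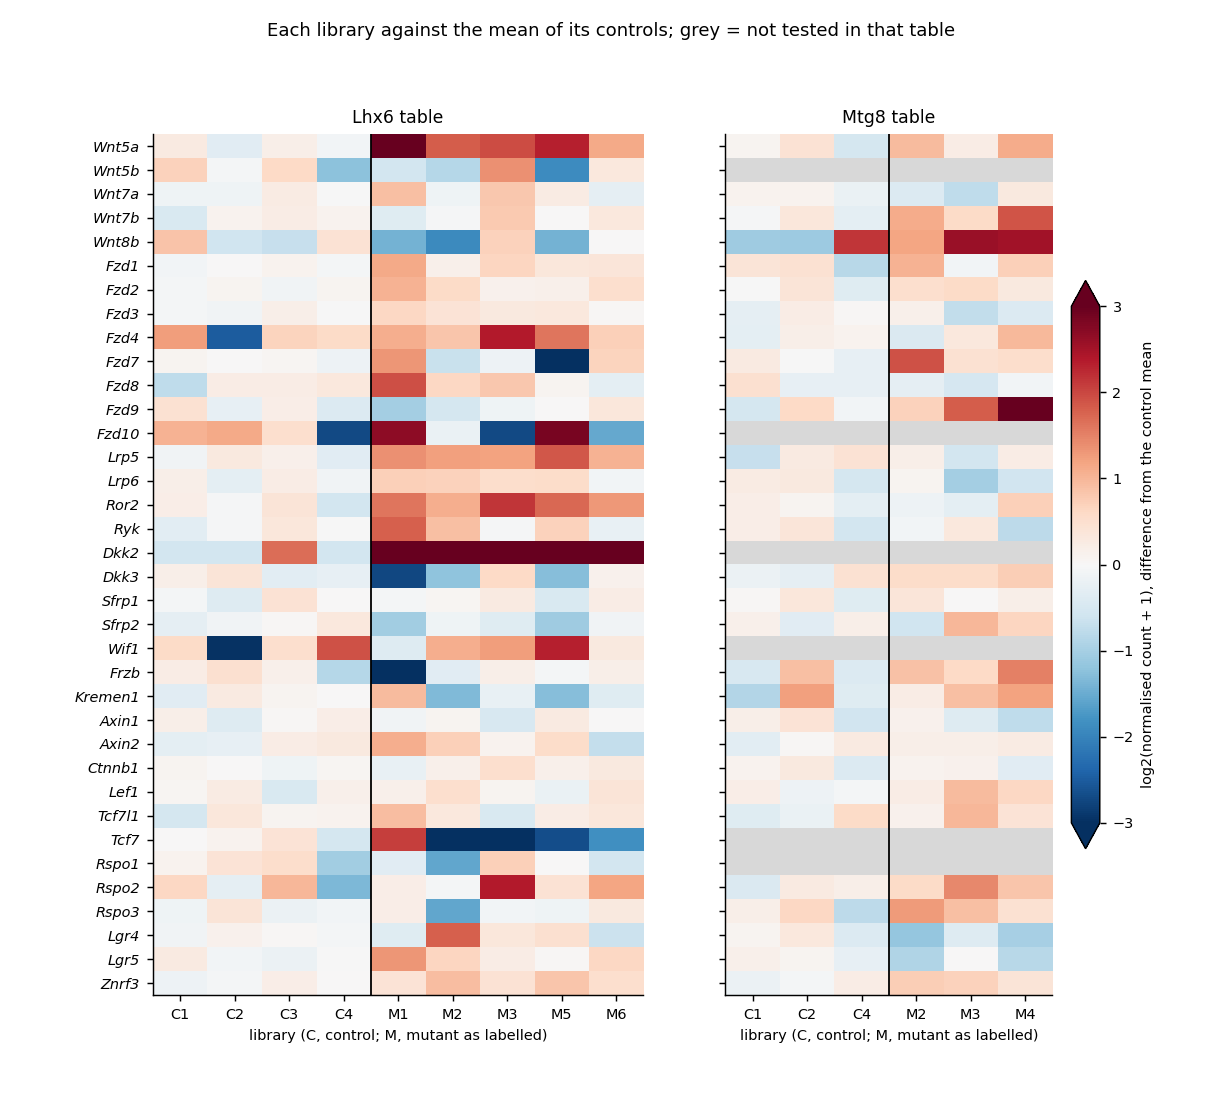
Difference of each library from the mean of its controls, on log2(normalised count + 1), for the members tested; the colour is full at 3 and grey marks a gene not tested in that table. Dkk2, Wnt5a, Ror2, Lrp5 and Znrf3 are above the control mean in all 5 Lhx6 mutants, while genes such as Fzd7, Fzd10 and Tcf7 change sign among the mutants.

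The members differed in how evenly they varied among embryos, as the map of single libraries against their control mean shows. Dkk2, Wnt5a, Ror2, Lrp5, Znrf3, Fzd1 and Fzd2 stood above every control in all 5 Lhx6 mutants, as did 3.19% of all genes tested. Low members varied most, such as Fzd10, at 0 in mutant 3 and 45.5 in mutant 5. Fzd8 (261), Ryk (1215), Wnt5a (1047) and Tcf7 (52.0) were each highest in mutant 1. Rspo2 (160.2) and Wnt5b (72.6) were highest in mutant 3. Exons of Wnt5a, Wnt7b, Ctnnb1, Lef1, Sfrp2, Rspo3, Fzd6 and Kremen2 overlap a gene on the opposite strand. The counting is not stated to use strand, so reads in the shared stretches of these pairs cannot be told apart. In the Lhx6 table the gene opposite Wnt5a averaged 6.12 normalised reads, where Wnt5a averaged 387. The gene opposite Kremen2 averaged 15.7, where Kremen2 averaged 2.67.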

How the data were processed

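YFP-positive cortical cells of single embryos gave RNA, which was amplified with a low-input kit and sequenced. Reads were trimmed (fastp 0.20.1), aligned (STAR 2.7b) and assigned to genes (featureCounts 1.6.4) on GRCm38.p6 by the authors, who left out sex-linked genes. The paper gives as the reason that the sexes were unevenly spread among control and mutant samples. Sex was not part of any fit here. The values the authors deposited are a signal in which counts were scaled by size factors from DESeq2, separately in the 2 tables. Columns of their own comparisons (log2 fold change with its error, test score and p-values, also deposited by the authors) were left unused. All values came out as whole reads (100% within 0.01), which were recovered.

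Because normalised values had been assumed, limma 3.58.1 in R 4.3.3 was the main test, with a trended variance on log2(normalised count + 1). Genes averaging 10 or more were tested, two-sided, with Benjamini-Hochberg adjustment over all of them and a threshold of 0.05. Alternatives were edgeR 4.0.16 and DESeq2 1.42.0 on recovered reads, pseudocounts of 0.5 and 10, other minimums, TMM, a replicate block, library name style and each library left out. Fits were tested on simulated data. Exon lengths came from a GENCODE annotation. The few embryos per group limit precision, and p-values measure the spread between them.

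The members and lists were chosen with earlier results of these data known. Full statistics are given for members called by any tool, and values per library for these and for the 3 highest per kb of each role that passed the minimum. Most other members are given by range. Of the other pathway genes, those called or with the 3 smallest p-values are named.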

Additional observations from a re-analysis of the deposited data

Results flagged for a closer look

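In 6 cases a library stood far from the rest of their group for 1 member, among 72 groups of 4 or 5 libraries examined, and chance sets apart about 1 in 20 groups. Fzd8 was lowest in Lhx6 control 1 (39.4 normalised reads, others 78.0 to 84.7), and Lrp6 was lowest in Lhx6 mutant 6 (622, others 959 to 1083). Dkk2 was highest in Lhx6 control 3 (3.68, others at 0), which rests on 4 reads. Tcf7 was highest in Lhx6 mutant 1 (52.0, others 0 to 2.48), Rspo3 in Lhx6 control 2 (315, others 215 to 228) and Lgr4 in Lhx6 mutant 2 (249.9, others 45.8 to 99.8).

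Wls, the carrier of Wnt ligands to the cell surface, differed from controls in opposite directions. All 5 Lhx6 mutants lay above the 4 controls (log2 fold change 1.18), whereas the 3 libraries labelled Mtg8 mutant lay below the 3 controls (-0.60, limma adjusted p = 0.859, where 5.52% of all genes tested were separated downward). Whether these effects differ was not tested.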

How the results depend on the processing

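The 3 members called in the Lhx6 comparison were called with pseudocounts of 0.5 and 10, with no minimum, with a minimum of 50, with TMM, with edgeR and without each library in turn, and DESeq2 called 5. Name style as a covariate left 1 (Dkk2). With no minimum on low values Gpc2 and Tle1 were not called. Other pathway genes called in the Lhx6 comparison numbered 11 with DESeq2, 0 with name style and 1 to 9 without single libraries. All genes called numbered 811 with DESeq2, 57 with name style and 159 to 492 without single libraries, the most without mutant 6 and the fewest without control 1. In the Mtg8 comparison all genes called numbered 1 with no minimum, 2 with a minimum of 50, 1 with edgeR, 30 with DESeq2 and 0 to 87 without single libraries (87 without mutant 2 as labelled). Pathway genes called there numbered 0 to 1. The median over members was 0.20 with a minimum of 50 and 0.20 to 0.46 without single libraries.

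Replicate numbers were not taken as pairs. Same-numbered deviations correlated at -0.15, 0.0017 and 0.072 in the Lhx6 table. In the Mtg8 table they correlated at 0.14 and 0.16, above the other 7 combinations (highest 0.078), but over 2 pairs only. With the numbers as a replicate block, 2 members (Dkk2 and Wnt5a), 0 pathway genes and 86 genes in all (0.514%) were called in the Lhx6 comparison. In the Mtg8 comparison the block called 1 member (Wnt7b), 1 pathway gene (Nkd1) and 100 genes in all, with a median over members of 0.28. Under the block the log2 fold change turned to 0.12 for Fzd7, -0.98 for Fzd10 and 0.018 for Papss1 in the Lhx6 comparison and to 0.068 for Fzd8 in the Mtg8 comparison.

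No difference that turned sign had been called. With name style in the Lhx6 comparison the values turned to 0.32 (Wnt5b), -0.27 (Wnt7a), 0.020 (Wnt8b), 0.67 (Fzd7), -0.30 (Fzd8), 0.34 (Fzd9), -1.54 (Fzd10), -0.089 (Lrp6), -0.21 (Ryk), 0.13 (Dkk3), 0.17 (Frzb), 0.015 (Axin1), -0.71 (Axin2), 0.29 (Rspo3) and -0.63 (Lgr4), and in the Mtg8 comparison to 0.10 (Ctnnb1). Fzd7 turned to 0.16 with edgeR and 0.18 with DESeq2, and Sfrp1 to -0.028 with TMM, -0.0059 with edgeR and -0.0013 with DESeq2. Without single libraries the Lhx6 values ran from -0.17 to 0.068 (Axin1), -0.69 to 0.94 (Fzd10), -1.10 to 0.30 (Fzd7), -0.045 to 0.56 (Lgr4), -0.16 to 0.035 (Papss1), -0.39 to 0.069 (Rspo3), -0.12 to 0.15 (Sfrp1), -0.070 to 1.55 (Wif1), -0.74 to 0.070 (Wnt5b) and -0.016 to 0.27 (Wnt7b). The Mtg8 values ran from -0.24 to 0.11 (Ctnnb1), -0.064 to 0.64 (Fzd4), -0.40 to 0.21 (Lrp5), -0.22 to 0.28 (Ror2), -0.46 to 0.12 (Ryk) and -0.0046 to 0.35 (Sfrp1). Other differences that were not called kept their sign but moved by over 1.5 times. In the Lhx6 comparison these included Fzd4 (0.49 without control 2), Frzb (-0.012) and Dkk3 (-0.44) without mutant 1, and Rspo2 (0.38 without control 4). In the Mtg8 comparison values without single libraries moved as far as 0.14 (Fzd1), -0.13 (Fzd3), -0.24 (Lrp6), -0.056 (Wnt7a) and 0.027 (Sfrp2). The cause was not tested. Members with few reads, such as Dkk1, were below the minimum for limma.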
